A study of Mus musculus with 12 samples.

Results

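Genes that brake growth-factor and MAP kinase signalling were followed in the hippocampus of mice injected with the plant sterol stigmasterol or with vehicle. The set holds 10 genes named by symbol, namely Dusp1, Dusp4, Dusp5, Dusp6, Dusp14, Errfi1, Spry2, Spry4, Spred1 and Sik1, out of 21532 genes in the count table. Each symbol was matched to 1 Ensembl identifier through the GENCODE annotation of GRCm38, and all 10 passed the filter on low counts that left 18382 genes for testing. Each member had at least 295 reads in every library, the lowest count being that of Dusp1 and the highest, 5134, that of Spred1.

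The animals were wild-type C57BL/6 mice, and messenger RNA of 1 hippocampal sample per mouse was sequenced. The 4 groups of 3 mice were vehicle at 1 h, stigmasterol at 1 h, vehicle at 6 h and stigmasterol at 6 h, the hour being the interval between intraperitoneal injection and dissection. The dose was 100 mg/kg, but the field that gives it names the compound beta-sitosterol, while the agent field and the titles name stigmasterol, and that name is used here. Age, sex, clock time and the make-up of the vehicle were not given in the labels, and no group was left uninjected. The 6 h and 1 h groups may therefore also differ in time of day, which cannot be told apart from the interval.

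When a growth factor or synaptic activity switches on the cascade from Ras through Raf and MEK to the kinase ERK, ERK and calcium signals induce their own brakes along with transcription factors such as Fos and Egr1. Dual-specificity phosphatases, the Dusp genes, remove phosphate from the activation loop of MAP kinases. Errfi1 binds and blocks the kinase domain of epidermal growth factor receptors, Sprouty and Spred proteins act on Ras and Raf at the membrane, and the kinase Sik1 holds the CRTC coactivators of CREB in the cytoplasm, so that it damps the CREB arm and not ERK itself. In the hippocampus such early genes are best known for a short pulse of transcription after neuronal firing.

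The promoters of Errfi1, Dusp5 and Dusp1 are shown because the first pair differed between the times while Dusp1, an early gene with a full cAMP response element, did not pass the test. The sequences are those of RefSeq on GRCm38.p6, written 5′ to 3′ on the gene's own strand and ended where an annotated exon of the gene begins inside the window; the Errfi1 and Dusp1 starts lie inside the annotated spans of those genes. Errfi1 is chr4:150854820-150855069 on the plus strand, Dusp5 is chr19:53528895-53529108 on the plus strand and Dusp1 is chr17:26508520-26508722 on the minus strand. Capitals mark every match to the motifs searched.
Errfi1: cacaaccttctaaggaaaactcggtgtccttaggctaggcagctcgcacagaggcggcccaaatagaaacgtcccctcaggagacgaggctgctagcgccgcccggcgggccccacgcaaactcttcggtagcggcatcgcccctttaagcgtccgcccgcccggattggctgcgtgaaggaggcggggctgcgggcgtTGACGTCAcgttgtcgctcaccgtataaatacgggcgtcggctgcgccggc
Dusp5: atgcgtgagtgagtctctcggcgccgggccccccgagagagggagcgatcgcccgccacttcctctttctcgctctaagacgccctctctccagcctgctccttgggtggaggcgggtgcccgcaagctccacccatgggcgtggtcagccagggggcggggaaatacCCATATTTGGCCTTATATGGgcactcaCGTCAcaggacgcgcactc
Dusp1: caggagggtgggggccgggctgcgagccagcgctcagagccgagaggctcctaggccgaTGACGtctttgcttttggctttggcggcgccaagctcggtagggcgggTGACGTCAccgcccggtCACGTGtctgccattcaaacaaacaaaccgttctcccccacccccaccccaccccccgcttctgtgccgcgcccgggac

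The motifs were searched on both strands in the 250 bases before each start. They were the cAMP response element TGACGTCA bound by CREB, its shorter form TGACG, the AP-1 site TGANTCA, the E-box CACGTG, the EGR site GCGNGGGCG, the ETS core CCGGAA, the glucocorticoid response element and the CArG box bound by serum response factor. RefSeq start windows were at hand for 7 of the 10 members, 8 windows in all since Errfi1 had a pair of starts. The Errfi1 window shown has TGACGTCA at position -51, counted back from the start site, and the Dusp1 window has it at -143 and an E-box at -126. Dusp5 carries adjoining CArG boxes at -82 and -72 and, on the other strand, TGACG at -55; TGACG also lies within every full element. Of 32851 mouse windows of the same length, 1.55% hold TGACGTCA, 1.47% a CArG box, 6.02% CACGTG and 17.8% TGACG. Dusp14 had an ETS core at -65, a motif found in 12% of windows, and the other 4 windows, those of Dusp6, Spry2 and Spred1 and the second of Errfi1, held none of the motifs.

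Between genes, levels were compared per kb of exon, as CPM per kb (CPM, counts scaled to the size of the library) over the 12 libraries. The length was that of all annotated exons of a gene merged, whether or not the RNA here held them, so the order depends on the annotation. Spry2 stood at 16.1 ± 1.68 CPM per kb and Spred1 at 15.9 ± 2.13 CPM per kb (SD, n = 12), the highest of the set. Dusp6, the cytoplasmic ERK phosphatase, followed at 12.8 ± 1.55 CPM per kb, Errfi1 at 11.2 ± 2.19 CPM per kb and Dusp14 at 10.8 ± 2.21 CPM per kb. The nuclear phosphatases were lower, with Dusp4 at 7.21 ± 1.03 CPM per kb, Dusp5 at 6.47 ± 1.40 CPM per kb and Dusp1 at 3.61 ± 0.534 CPM per kb, and Spry4 at 3.09 ± 0.218 CPM per kb and Sik1 at 2.84 ± 0.558 CPM per kb closed the order. The ranges of 1 SD around the means of neighbours in this order overlapped except for Dusp14 and Dusp4 and for Dusp5 and Dusp1. The full ranges of these pairs over the 12 libraries did overlap. Within each library, though, Dusp14 was above Dusp4 and Dusp5 above Dusp1. The ratio of the highest to the lowest library ran from 1.23 for Spry4 to 2.16 for Dusp14.

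A few libraries stood apart in markers of neighbouring structures, and they matter below. All 9 striatum markers passed the filter on low counts, and their summed level was 489 CPM in stigmasterol replicate 8 at 1 h against 176 to 220 CPM in the other 11 libraries. The 12 choroid plexus markers summed to 71.1 and 91.5 CPM in the 1 h vehicle mice numbered 4 and 9 and to between 463 and 5079 CPM elsewhere. The 10 hippocampal neuron markers were at 10865 to 12593 CPM in all 12 libraries, the tissue named by the labels, and 7 endothelial markers at 223 to 262 CPM. Total counts lay between 27613253 and 42043875 per library. The 10 oligodendrocyte markers summed to 14367 CPM in stigmasterol replicate 8 at 1 h and to between 6026 and 10911 CPM in the others, and all 10 had a positive log2 fold change with stigmasterol at both times (median 0.48 at 1 h and 0.23 at 6 h; 0 called). The 6 meninges markers reached 185 CPM in stigmasterol replicate 11 at 1 h and lay between 83.5 and 148 CPM elsewhere, with 6 of 6 positive at 1 h (median 0.76, 0 called). With stigmasterol at 1 h, 12 of 12 choroid plexus markers (median 1.42) and 9 of 9 striatum markers (median 1.06) were positive. At 6 h it was 0 of 12 (median -0.38) and 5 of 9 (median 0.02). Between the times, 12 of 12 choroid plexus markers were higher at 6 h in vehicle mice (median 1.20) and 0 of 12 in stigmasterol mice (median -0.64). None of these markers was called. The part of these tissues in the members' values was not tested. In bulk tissue, fewer cells of a type and less RNA per cell cannot be told apart.

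**Figure D1:**
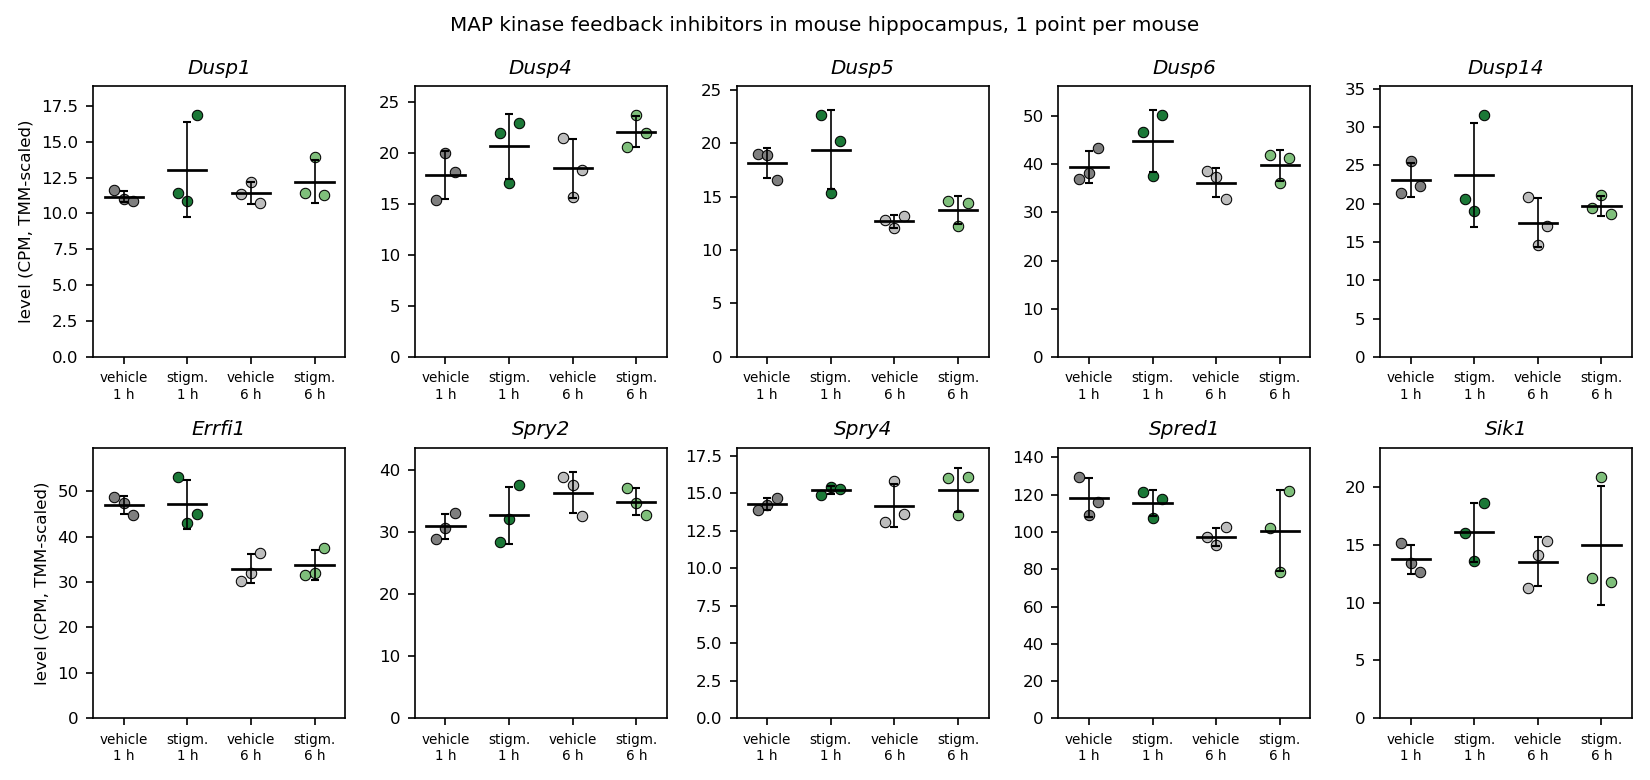
Level of each of the 10 genes in CPM (vertical axis), 1 point per mouse, for the 4 groups of injection and time; the horizontal line is the group mean and the bar is 1 SD (n = 3). Errfi1 and Dusp5 are the only panels in which all 6 mice at 1 h lie above all 6 mice at 6 h.

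Time after the injection gave the clearest difference in the set. Errfi1 and Dusp5 were lower at 6 h than at 1 h, by about the same ratio, in mice given either injection. With both injections averaged, the level at 6 h was 0.708 times that at 1 h for Errfi1 and 0.704 times for Dusp5, and these were the 2 of 10 members that passed an adjusted p of 0.05 (edgeR quasi-likelihood test, Benjamini-Hochberg adjustment). Across all genes tested, 7.97% passed in this comparison, 4.05% higher and 3.92% lower at 6 h.

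Errfi1, the receptor inhibitor, was at 48.7, 47.4 and 44.9 CPM in the vehicle mice at 1 h (replicates 4, 5 and 9). The stigmasterol mice at 1 h had 53.2, 43.1 and 45.01 CPM (replicates 1, 11 and 8). At 6 h the vehicle mice had 30.3, 32.0 and 36.5 CPM (replicates 12, 14 and 21) and the stigmasterol mice 31.5, 32.0 and 37.6 CPM (replicates 13, 22 and 23). Every mouse at 1 h was above every mouse at 6 h, with a gap between 43.1 and 37.6 CPM, and the injections overlapped at both times. The log2 fold change of 6 h against 1 h was -0.50 ± 0.07 (SE; 95% interval -0.65 to -0.34; adjusted p = 0.00457, edgeR). Within vehicle mice it was -0.51 ± 0.10 (adjusted p = 0.0432) and within stigmasterol mice -0.48 ± 0.10 (adjusted p = 0.17). The difference between these was 0.03 (95% interval -0.28 to 0.34; adjusted p = 1, edgeR), so a different fall in the 2 arms was not shown.

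Dusp5, a nuclear phosphatase that is specific for ERK and anchors it there, was at 19.0, 18.9 and 16.5 CPM in the vehicle mice at 1 h. The stigmasterol mice at 1 h had 22.7, 15.4 and 20.2 CPM. At 6 h the vehicle mice had 12.8, 12.03 and 13.2 CPM and the stigmasterol mice 14.6, 12.3 and 14.4 CPM, in the same order of replicates. The 1 h and 6 h mice again did not overlap, though stigmasterol replicate 11 at 1 h, at 15.4 CPM, came close to replicate 13 at 6 h. The averaged log2 fold change was -0.51 ± 0.09 (95% interval -0.71 to -0.31; adjusted p = 0.0142, edgeR). It was -0.52 ± 0.13 within vehicle mice (adjusted p = 0.0756) and -0.49 ± 0.13 within stigmasterol mice (adjusted p = 0.289), and the difference of the arms was 0.02 (95% interval -0.38 to 0.43; adjusted p = 1).

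Averaged over the injections, groups without overlap between the times were found for 2 members, both lower at 6 h, against 2.42% of all genes. Within vehicle mice, 4 members did not overlap and were lower at 6 h, namely Errfi1, Dusp5, Dusp14 and Spred1, against 17.4% of all genes. Within stigmasterol mice there were 2, Errfi1 and Dusp5, against 6.61%. By the adjusted p, the vehicle comparison called 1 member and 0.675% of all genes, and the stigmasterol comparison called 0 members and 0.00544% of all genes; in the latter, an unadjusted p below 0.05 was reached by 2 members and by 9.99% of all genes, and DESeq2 called 1 member, Errfi1, among 91 genes (0.58%).

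Leaving out libraries ended some of these calls, while the estimates kept their sign and about their size. Without vehicle replicates 4 and 9 at 1 h, the libraries low in choroid plexus RNA, 1 vehicle mouse was left at that time. The averaged log2 fold changes were then -0.50 for Errfi1 and -0.53 for Dusp5, against -0.50 and -0.51 with all libraries. Both calls were lost in that fit, which cannot separate a dependence on these mice from the loss of replicates. The Errfi1 call within vehicle mice was lost when any 1 of the 6 vehicle libraries was left out (log2 fold change -0.59 to -0.46; adjusted p = 0.0765 to 0.148). Nearly all calls went with it, since the genes called among all tested fell from 124 to between 0 and 4 in these omissions. In the averaged comparison, leaving out any 1 of the 12 libraries kept both calls, among 244 to 2738 genes called.

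The other 8 members did not pass the test between the times. Dusp14, a small phosphatase without the kinase-docking domain of the larger ones, had a log2 estimate of -0.33 ± 0.12 (adjusted p = 0.111, edgeR). In the vehicle mice its values were 21.4, 25.5 and 22.3 CPM at 1 h and 20.9, 14.6 and 17.1 CPM at 6 h, a narrow separation. In the stigmasterol mice they were 20.6, 19.05 and 31.6 CPM at 1 h and 19.5, 21.2 and 18.6 CPM at 6 h, which overlapped. Spred1, which brings neurofibromin to Ras, had -0.24 ± 0.09 (adjusted p = 0.112), and its group means were 118 ± 10.5 CPM for vehicle and 115.6 ± 7.16 CPM for stigmasterol at 1 h and 97.6 ± 4.83 and 100.8 ± 21.9 CPM at 6 h (SD, n = 3). Stigmasterol replicate 22 at 6 h gave the lowest Spred1 value, 78.3 CPM, and replicate 23 of that group gave 122 CPM. Without replicate 23, Spred1 passed the averaged test at a log2 fold change of -0.32 (adjusted p = 0.0178, edgeR). In that omission 2738 of all genes passed, 1613 of them lower, against 1465 with all libraries.

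Spry2, an inhibitor of signalling between receptors and Ras, went the other way in its estimate, 0.16 ± 0.08 (adjusted p = 0.184, edgeR). In the vehicle mice it was at 28.9, 30.7 and 33.0 CPM at 1 h and 38.9, 37.5 and 32.5 CPM at 6 h. The single overlap was replicate 21 at 6 h, below replicate 9 at 1 h. Dusp6 had -0.15 ± 0.08 (adjusted p = 0.245). Dusp4 (0.08), Dusp1 (-0.03), Sik1 (-0.06) and Spry4 (-0.00), the sister gene of Spry2, had averaged log2 fold changes of the size of their error or less. In all, 8 of 10 members had a negative averaged log2 fold change, with a median of -0.11, where 50.7% of all genes were positive and their median was 0.00. The members' median was -0.06 without stigmasterol replicate 8 at 1 h and -0.16 without replicate 11.

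**Figure D2:**
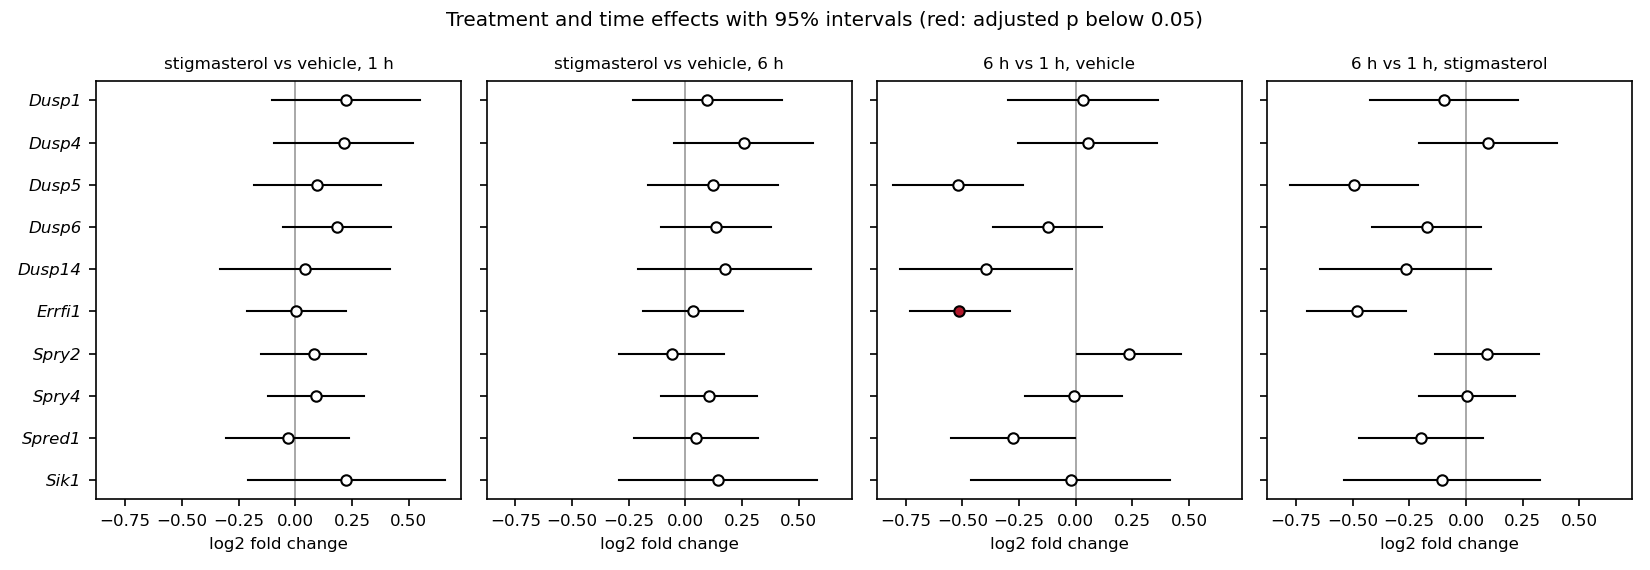
Log2 fold change of each gene with its 95% interval (horizontal axis, edgeR) for stigmasterol against vehicle at 1 h and 6 h and for 6 h against 1 h within each injection; a filled red point has an adjusted p below 0.05. The stigmasterol panels have no filled point, and Errfi1 (-0.51) is the only filled point in the vehicle time panel.

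Stigmasterol against vehicle gave no called member at either time. The background was the same, since 0% of all genes passed at 1 h, at 6 h, averaged over the times and in the difference of the effects (edgeR). At an unadjusted p below 0.05 there were 1383 genes at 1 h (7.52%) and 754 at 6 h (4.1%), with 0 members at each time. DESeq2 also called 0 members, where it called 20 genes (0.113%) at 1 h, 2 genes (0.00929%) at 6 h and 91 genes (0.551%) averaged over the times. The estimates themselves were small and mostly positive: the log2 fold change was above 0 for 9 of 10 members at each time, with a median of 0.09 at 1 h and 0.11 at 6 h, where 49.6% and 50% of all genes were above 0. At 1 h the median moved to 0.22 without stigmasterol replicate 11 (10 of 10 above 0). It was 0.16 without replicate 1 (7 of 10) and 0.05 without replicate 8 (6 of 10). At 6 h the median moved to 0.07 without vehicle replicate 12 (8 of 10). It was 0.15 without stigmasterol replicate 22 (7 of 10) and 0.10 without stigmasterol replicate 23 (7 of 10). The treatment comparisons at the 2 times use separate mice, but they share their libraries with the time comparisons.

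At 1 h the largest estimates were those of Dusp1, Sik1, Dusp4 and Dusp6. Dusp1, the nuclear phosphatase that acts on ERK, JNK and p38, was at 11.6, 10.99 and 10.9 CPM with vehicle and at 11.4, 10.9 and 16.9 CPM with stigmasterol, a log2 fold change of 0.22 ± 0.15 (adjusted p = 0.724, edgeR). All of that difference lay in stigmasterol replicate 8, without which the value was -0.00. The same mouse had the highest Dusp14 of all 12, 31.6 CPM, and the highest Dusp6, 50.2 CPM; without it the Dusp14 estimate at 1 h went from 0.04 ± 0.17 to -0.22, and 6 of 10 members were above 0. This is the library with 489 CPM of striatum markers and 14367 CPM of oligodendrocyte markers; the part of that RNA in the values was not tested.

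Dusp4, a nuclear phosphatase of ERK and JNK, was at 15.3, 19.97 and 18.2 CPM with vehicle at 1 h and at 21.97, 16.99 and 22.96 CPM with stigmasterol. At 6 h it was at 21.4, 15.7 and 18.3 CPM with vehicle and at 20.6, 23.7 and 21.9 CPM with stigmasterol. The injections overlapped because of stigmasterol replicate 11 at 1 h, which was low, and vehicle replicate 12 at 6 h, which was high. Averaged over the times, its log2 fold change was 0.23 ± 0.10 (95% interval 0.02 to 0.45), the single member with an unadjusted p below 0.05, where 9.17% of all genes had one, and the adjusted p was 0.516 (edgeR). Leaving out single libraries moved it between 0.18 and 0.31. At 6 h alone it was 0.26 ± 0.14 (adjusted p = 1), the largest of the 10 estimates at that time.

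Dusp6 was at 36.9, 38.2 and 43.3 CPM with vehicle and 46.7, 37.6 and 50.2 CPM with stigmasterol at 1 h, a log2 fold change of 0.19 ± 0.11 (adjusted p = 0.707, edgeR). It was 0.0956 without stigmasterol replicate 8 and 0.31 without replicate 11. At 6 h its group means were 36.2 ± 3.01 CPM with vehicle and 39.7 ± 3.16 CPM with stigmasterol (SD, n = 3), and the groups overlapped at both times. Sik1 was at 15.1, 13.5 and 12.7 CPM with vehicle and 16.1, 13.6 and 18.6 CPM with stigmasterol at 1 h. At 6 h Sik1 reached 20.9 CPM in stigmasterol replicate 22 and lay between 11.2 and 15.3 CPM in the other 5 mice. That 1 library set the sign of its 6 h estimate, 0.14 with it and -0.18 without it. Spry4 at 1 h was the member whose groups did not overlap, at 13.9 to 14.7 CPM with vehicle and 14.9 to 15.4 CPM with stigmasterol, against 8.23% of all genes that were separated and higher; its log2 fold change was 0.09 ± 0.10 (adjusted p = 0.821, edgeR). At 6 h 0 members were separated, where 8.22% of all genes were.

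For Errfi1 and Dusp5, the pair that differed between the times, stigmasterol and vehicle lay close together. The Errfi1 log2 fold change was 0.00 ± 0.10 at 1 h, with a 95% interval of -0.21 to 0.22, and 0.03 at 6 h. Dusp5 had 0.10 ± 0.13 at 1 h and 0.12 at 6 h. The remaining members at 1 h were Spry2 at 0.08 ± 0.11 and Spred1 at -0.03 ± 0.13. The difference of the treatment effects, 6 h minus 1 h, had an adjusted p of 1 for each of the 10 genes (edgeR).

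**Figure D3:**
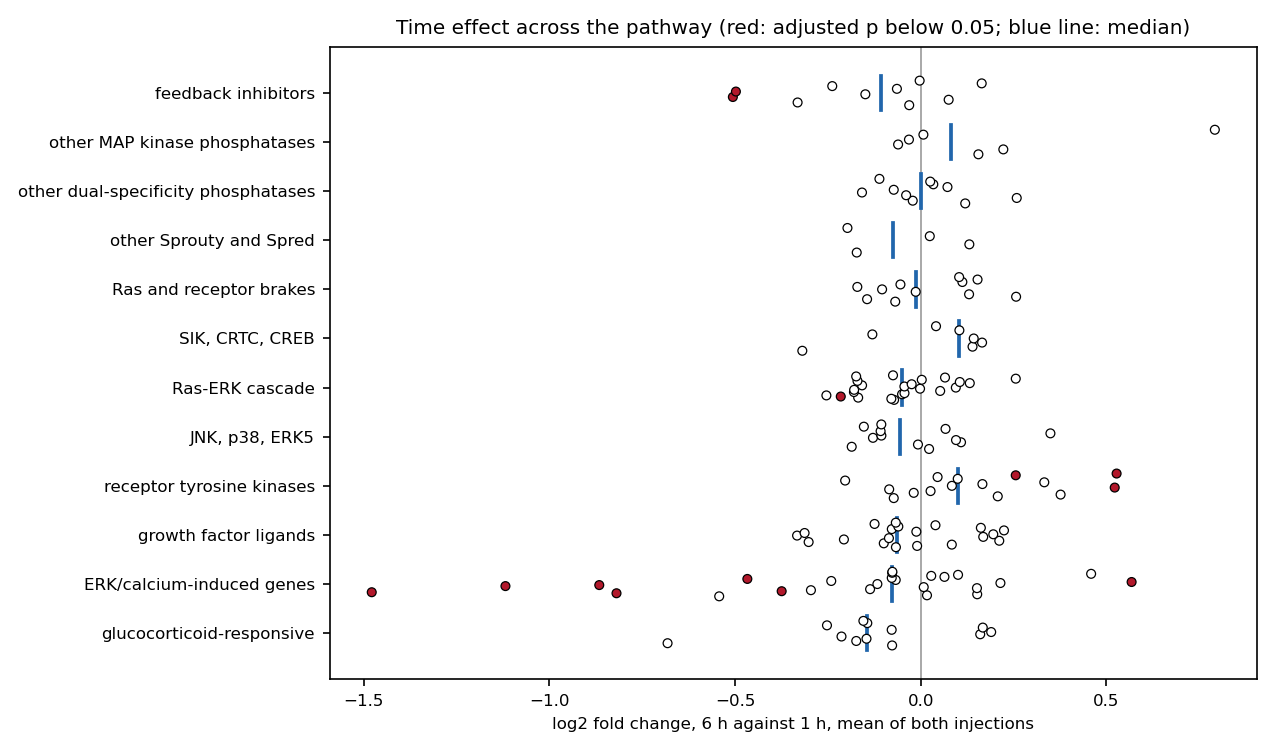
Log2 fold change of 6 h against 1 h, both injections averaged (horizontal axis), for the 10 feedback inhibitors and 11 lists of related genes; each point is a gene, red points have an adjusted p below 0.05 and the blue line is the list's median. Red points lie left of 0 among the feedback inhibitors and most ERK- and calcium-induced genes, and right of 0 among the receptor tyrosine kinases.

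Related genes were read in the same averaged time comparison, in which 4.05% of all genes tested passed as higher and 3.92% as lower at 6 h. Of 25 genes induced by ERK and calcium, 6 fell and 1 rose at an adjusted p below 0.05 (edgeR), and the list's median log2 fold change was -0.08. Fosb, a subunit of AP-1, fell by 0.87 ± 0.13 on the log2 scale (adjusted p = 0.00489), from group means of 9.34 CPM with vehicle and 11.2 CPM with stigmasterol at 1 h to 5.70 and 5.53 CPM at 6 h. Egr1, a zinc-finger transcription factor of the same early wave, fell by 0.82 ± 0.17 (adjusted p = 0.0193, edgeR), from 84.2 and 131.5 CPM to 58.1 and 61.2 CPM. At 1 h the stigmasterol mice were at 128, 72.1 and 194 CPM (replicates 1, 11 and 8) and the vehicle mice at 79.5 to 90.3 CPM, so the injections overlapped. The gene that rose was Ier3, named after its value was seen, at 0.57 ± 0.13 (adjusted p = 0.0286). Without vehicle replicates 4 and 9 at 1 h, which left 1 vehicle mouse at that time, neither call held. The log2 fold changes were then -0.88 for Fosb and -0.77 for Egr1. Without vehicle replicate 14 at 6 h the adjusted p was 0.0537 for Egr1 (edgeR).

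Of 15 receptor tyrosine kinases tested, 3 rose and 0 fell. Fgfr3, a fibroblast growth factor receptor of astrocytes, rose by 0.52 ± 0.06 on the log2 scale (adjusted p = 0.00199, edgeR), and Pdgfrb, the receptor that marks pericytes, 0.53 ± 0.07 (adjusted p = 0.00233). Fgfr3 was at 148 to 171 CPM in the vehicle mice and 162 to 174 CPM in the stigmasterol mice at 1 h, and at 206 to 251 CPM and 224 to 252 CPM at 6 h, so the times did not overlap. Both were also called within vehicle mice alone, at 0.55 ± 0.09 (adjusted p = 0.0269, edgeR) and 0.58 ± 0.09 (adjusted p = 0.0281, edgeR). Without vehicle replicates 4 and 9 at 1 h, which left 1 vehicle mouse at that time, these calls were lost. The log2 fold changes were then 0.68 for Fgfr3 and 0.63 for Pdgfrb. Single omissions also ended the calls within vehicle mice, any 1 vehicle library for Pdgfrb and any but replicate 21 at 6 h for Fgfr3 (adjusted p = 0.0626 to 0.139, edgeR). The averaged calls of both held. Within vehicle mice these single omissions left 0 to 4 genes called in all, against 124 in full. With GC content and length trends removed, the Fgfr3 call within vehicle mice was also lost (adjusted p = 0.0573, edgeR). The third was Pdgfra, of oligodendrocyte precursors, named after its value was seen, at 0.26 ± 0.05 (adjusted p = 0.0202).

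Of 23 genes of the Ras-ERK cascade, 1 fell, Hras, by 0.22 ± 0.06 on the log2 scale (adjusted p = 0.0428, edgeR). This call held in 5 of 21 alternatives. It was lost in edgeR with DESeq2 size factors (adjusted p = 0.0532) and with a mean of at least 2 CPM (adjusted p = 0.0546). With limma-trend on the normalized values it was also lost (adjusted p = 0.0515). The same held without any 1 library other than stigmasterol replicate 23 at 6 h (adjusted p = 0.0563 to 0.115, edgeR). The relatives of the members did not pass the test, that is 0 of 6 other MAP kinase phosphatases, 0 of 10 other dual-specificity phosphatases, 0 of 4 other Sprouty and Spred genes and 0 of 11 other brakes on Ras or receptors passed. None of 7 genes around SIK and CRTC passed, nor of 12 in the JNK, p38 and ERK5 branches, 20 growth factor ligands or 12 glucocorticoid-responsive genes. Across all genes 7.97% passed, so counts of 0 in lists this short do not set the relatives apart. The smallest p among the close relatives belonged to Dusp16, a phosphatase of JNK and p38, at 0.22 ± 0.07 (adjusted p = 0.0588, edgeR), and to Spred2 at -0.17 ± 0.05 (adjusted p = 0.0604). For stigmasterol against vehicle, 0 genes of any of these lists passed at either time. Of the 25 ERK- and calcium-induced genes, 22 were above 0 at 1 h (median 0.31) and 18 at 6 h (median 0.07). The part of stigmasterol replicate 8 in the 1 h values was not tested for this list. The 12 glucocorticoid-responsive genes leaned the same way, with 11 above 0 at 1 h (median 0.15) and 10 at 6 h (median 0.27). Of the 23 Ras-ERK cascade genes, 6 were above 0 at 1 h and 11 at 6 h. Among the ERK- and calcium-induced genes, the smallest p at 1 h was that of Egr4, a relative of Egr1. It was at 1.06 ± 0.24 (adjusted p = 0.534, edgeR), and DESeq2 called it at an adjusted p of 0.0134.

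**Figure D4:**
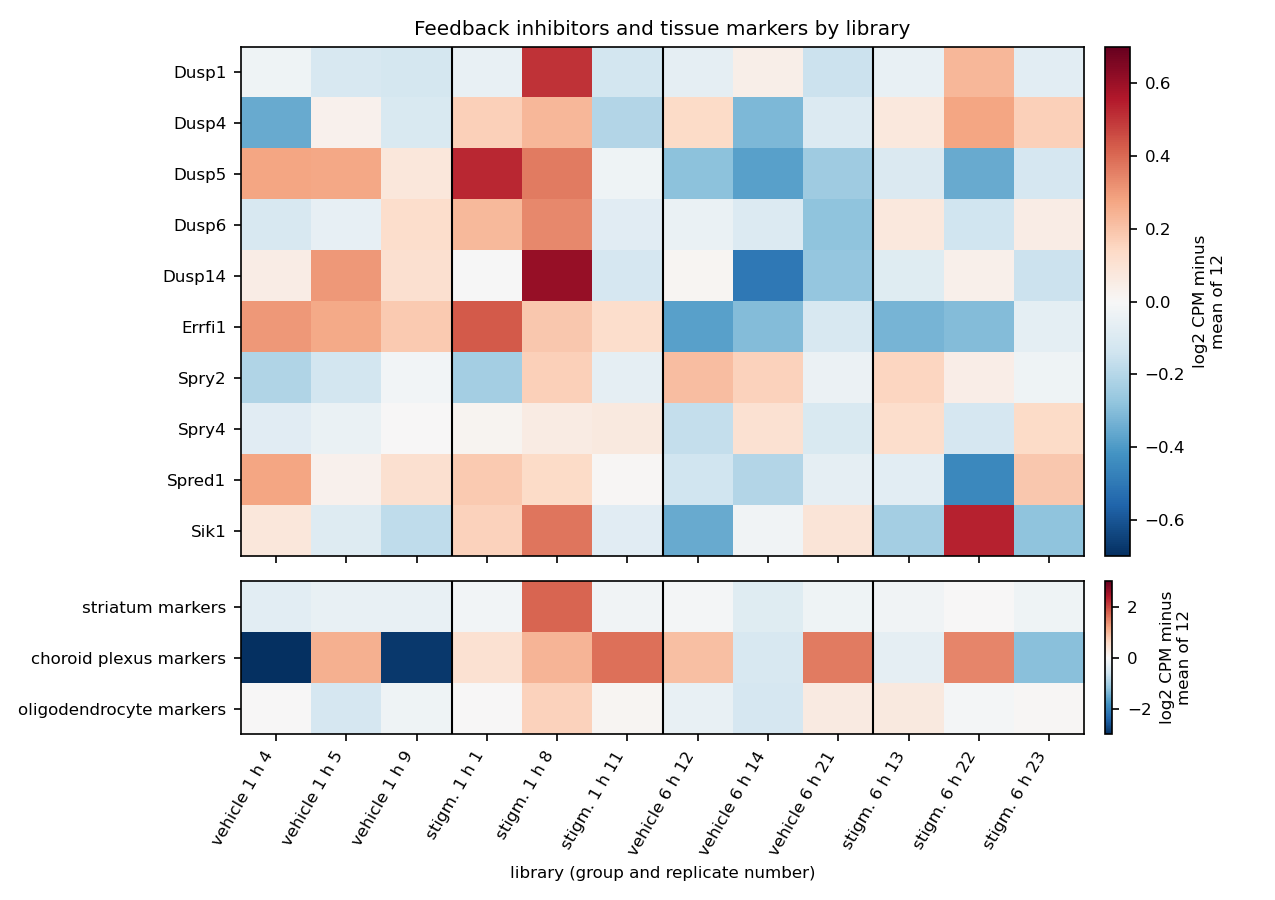
Log2 CPM of each gene minus its mean over the 12 libraries (upper panel, colour scale from -0.7 to 0.7) and the same for 3 marker lists (lower panel, wider scale), 1 column per mouse, ordered by group. Errfi1 turns from red to blue between 1 h and 6 h. Dusp5 does so too, except that stigmasterol replicate 11 at 1 h is already just below the mean. Stigmasterol replicate 8 at 1 h is red in most rows and in striatum markers, and vehicle replicates 4 and 9 at 1 h are dark blue in choroid plexus markers.

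No pair of the 10 genes was shown to rise and fall together between mice of a group. After group means were removed, 28 of the 45 pairs had a Pearson r above 0, the median r was 0.15 over 12 libraries, and 0 pairs passed an adjusted p of 0.05 by the exact permutation test within groups (two-sided, Benjamini-Hochberg over 45 pairs); 4 pairs had an unadjusted p below 0.05. The pair with the smallest p was Errfi1 and Spry2, whose r was negative at -0.803 (exact permutation p = 0.017, adjusted 0.495; Spearman rho -0.643, exact permutation p = 0.0802). Dusp4 and Dusp14 had r = 0.792 (exact permutation p = 0.0262, adjusted 0.495; rho 0.825, exact permutation p = 0.0139). Without the 2 libraries in which the first gene named, Errfi1 or Dusp4, lay farthest from its median, r was -0.709 and 0.663. That choice took no account of the second gene of the pair. Errfi1 and Dusp5, which fell together between the times, had r = 0.641 within groups (exact permutation p = 0.0949). The smallest p the exact permutation test could give was 0.000772, so after adjustment a lone pair could pass only at that limit. With so few mice per group, the test cannot decide whether the 10 genes moved as a block.

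Single libraries held the extremes. Stigmasterol replicate 8 at 1 h had the highest value of 3 members, Dusp1, Dusp6 and Dusp14, and stigmasterol replicate 1 at 1 h that of Errfi1 and Dusp5. Stigmasterol replicate 22 at 6 h had the highest Dusp4 and Sik1 and the lowest Spred1. The 3 vehicle mice at 6 h held the lowest value of 7 members between them.

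Across all 12 libraries, the protein-coding gene whose log2 CPM was most like that of Errfi1, among 13687 with a mean of at least 1 CPM, was Erlin1, with a Pearson r of 0.964, and for Dusp5 it was Uap1 (0.946). These coefficients hold the time difference within them and describe the 12 libraries. Each coefficient here and below is the highest of 13687 over 12 libraries, so its size is raised by that choice. The nearest genes of the other members were Zfp651 for Dusp1 (0.971), Acbd5 for Spred1 (0.966), Gfra2 for Dusp14 (0.947), Cdc25a for Dusp6 (0.912), Robo4 for Spry2 (0.9), Rai2 for Dusp4 (0.898) and Kpna2 for Sik1 (0.882). Spry4, the member that varied least between libraries, had the weakest nearest match, Kif11 (0.754).

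Some members share ground with other annotated genes on GRCm38. Errfi1 (chr4:150853919-150868892, plus strand) overlaps the antisense gene 1700045H11Rik, and Dusp5 (chr19:53529109-53542431, plus strand) the antisense gene AC137853.2. The annotated span of Dusp1 (chr17:26505590-26562128, minus strand) meets Ergic1 on the other strand, which had 3032 to 4902 reads per library. Since the strandedness of the libraries is not stated, reads of overlapping genes cannot be told apart in the shared stretch. The level of Dusp1 is uncertain for this reason.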

How the data were processed

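Messenger RNA of 12 hippocampal samples was sequenced after TruSeq library preparation, with RNA integrity of at least 7, per the labels. The submitters' processing notes list STAR 2.4.2a and HTSeq 0.6.1p1, beside cutadapt and bcl2fastq 2.17.1.14, and name DESeq and DESeq2 1.10.1 with build GRCm38; their roles are not given in the sources used here. The authors deposited raw counts of reads per Ensembl gene, which entered every main test. They also deposited a normalized signal, each library's counts divided by 1 size factor, used in 1 alternative.

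Tests used edgeR 4.0.16 in R 4.3.3: filterByExpr kept 18382 of 21532 genes, TMM scaled the libraries, and the quasi-likelihood model had a coefficient for each group and took in all 12 libraries. P-values were adjusted by Benjamini-Hochberg over all tested genes, with a threshold of 0.05. The SE is that of the log2 fold change, with a median over genes of 0.117 within 1 time or injection and 0.0825 averaged; the common biological coefficient of variation was 0.123. CPM used TMM-scaled totals. Coordinates came from GENCODE M21 for 21501 genes. No gene in the table had a highest count under 6.

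Alternatives were DESeq2 1.42.0 (Wald test and size factors), limma 3.58.1 (voom, and trend on log2 of the normalized values plus 1), no filter, a mean of at least 2 CPM, only the groups compared, removal of GC content and length trends (splines with 5 degrees of freedom), omission of vehicle replicates 4 and 9 at 1 h together, and of each library in turn. Omission of stigmasterol replicates 8 at 1 h and 22 at 6 h together was added after the data had been seen. The members and the gene lists were chosen with earlier results of these data known. All members are named in the comparisons; from other lists, up to 2 genes with the smallest p where a gene was called and otherwise at most 1, in a comparison shown. The procedure was tested on simulated data.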

Additional observations from a re-analysis of the deposited data

How the results depend on the processing

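Errfi1 in the averaged comparison of 6 h with 1 h kept its direction in all 21 alternatives and its call in 20 (log2 fold change -0.54 to -0.45), and Dusp5 likewise (-0.58 to -0.44). The exception for each was the omission of vehicle replicates 4 and 9 at 1 h, which left 1 vehicle mouse in that group. In the averaged comparison, leaving out single libraries gave 2 to 3 called members, where all genes called numbered 244 to 2738 against 1465 in full. Within vehicle mice it gave 0 called members against 1, where all genes called numbered 0 to 4 against 124. Within vehicle mice the called members were 2 with DESeq2, 3 with only the groups compared (Dusp5, Errfi1 and Spred1), 2 with GC content and length trends removed and 0 without vehicle replicates 4 and 9; within stigmasterol mice DESeq2 called 1 against 0, among 91 genes against 1. With GC and length trends removed, all called genes numbered 769 against 124 within vehicle mice and 2285 against 1465 averaged, 1043 of them higher; within vehicle mice DESeq2 gave 1117, only the groups compared 1771 and a mean of at least 2 CPM 276, and averaged DESeq2 gave 2279. The cause of these shifts was not tested.

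Of 1240 repeats of members' values, 117 changed sign, 100 of them by less than 1 SE. The larger turns came mostly from single libraries. Without stigmasterol replicates 8 at 1 h and 22 at 6 h together, the log2 fold changes at 1 h were -0.0029 for Dusp1, -0.22 for Dusp14 and -0.0321 for Spry2; that of Sik1 at 6 h was -0.18; averaged over the times they were -0.0056 for Dusp1, -0.0488 for Dusp14 and -0.0341 for Sik1. Without vehicle replicates 4 and 9 at 1 h, Dusp4 within vehicle mice was at -0.11. Leaving out single libraries, stigmasterol against vehicle at 1 h ranged from -0.003 to 0.35 for Dusp1, -0.22 to 0.19 for Dusp14 and -0.0322 to 0.18 for Spry2, and at 6 h from -0.18 to 0.29 for Sik1 and -0.11 to 0.20 for Spred1; the averaged Dusp14 effect ranged from -0.0224 to 0.19. For Dusp1, the difference of effects ranged from -0.25 to 0.10, the time effect within stigmasterol mice from -0.21 to 0.13 and the averaged one from -0.0889 to 0.0821. No paired analysis was possible because the groups share no replicate numbers. With 3 mice per group and a median SE of 0.117, changes of the size of most members' estimates were not detectable.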
